A study of Homo sapiens with 6 samples.

Results

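Matricellular proteins are secreted into the extracellular matrix, where they act less as scaffold than as signals, binding collagen, growth factors and cell surface receptors. In prostate cancer, as in other carcinomas, they are made both by the tumor cells and by the surrounding fibroblasts, and several of them are induced by TGF-beta or by the YAP/TAZ coactivators. The 10 genes described here were SPARC and SPOCK1, which encode secreted calcium-binding proteins with a shared domain, LUM and DCN, which encode the small leucine-rich proteoglycans lumican and decorin, FN1 (fibronectin), THBS1 (thrombospondin-1), TNC (tenascin-C), POSTN (periostin), and CYR61 and CTGF, the older symbols of CCN1 and CCN2. Each was found by its symbol as exactly 1 of the 24000 entries of the deposited table, and no other entry overlapped any of their loci. The genes were chosen by name with earlier results on these tumors in view, in which SPARC and LUM had been singled out for their FPKM values in the 2 groups. The differences between the groups are therefore given for these 10 genes as a description, with standard errors and without p-values.

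The tumors were xenografts of PC-3, an androgen-independent line of human prostate cancer cells, grown in the prostate of male nude mice. Nude mice lack T cells but keep other immune cells, vessels and fibroblasts of their own, so the samples can hold mouse RNA, whose part in the values was not tested. RNA was sequenced from 3 tumors of mice given vehicle and from 3 tumors of mice given a standardized extract of the herb Wedelia chinensis (WCE) by mouth. The labels give a treatment of 10 weeks for all 6 tumors and neither a dose nor an age of the mice, and they name each tumor as an individual sample.

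Values are FPKM, fragments per kilobase of a transcript among all mapped fragments of a tumor, which can be compared between genes because they are scaled to length. Depth is known only relative to vehicle replicate 3. WCE replicate 1 had 25.0% of it and the other 4 tumors between 64.8% and 85.2%. By their values, the libraries of vehicle replicate 3 and WCE replicate 1 were nearly the same. Over 1915 highly expressed entries their median absolute difference was 0.028 in log2(FPKM + 1), whereas the other 14 pairs lay between 0.095 and 0.247. WCE replicate 1 had 15805 entries above 0, and 0 of them were missing from vehicle replicate 3. In the 10 genes they differed by at most 0.084 on the same scale. Whether they came from 2 separate tumors was not tested. Every value given for 3 against 3 tumors, its SD, standard error and p included, counts them as separate samples. The differences of the 10 genes and of the related genes with a low p are for this reason also given for the 2 vehicle-treated and 2 WCE-treated tumors that remained without this pair. As the pair is split between the groups, leaving it out enlarges any difference clearly larger than that within the pair, by arithmetic alone. The values for 2 tumors against 2 are thus no independent support for those of 3 against 3.

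The epithelial genes KRT8, KRT18, KRT19 and EPCAM summed to between 1108 and 1386 FPKM in every tumor, and KLK3 and KLK2, the androgen-driven kallikreins of prostate, were listed at 0 in all 6. TMPRSS2, another gene of androgen-dependent prostate, had a mean of 21.5 FPKM. Of the 7 fibroblast markers 3 had a mean under 0.5 FPKM, at 0.069 FPKM for PDGFRB, 0.244 FPKM for COL1A2 and 0.025 FPKM for THY1. The other 4 were FAP at 0.974, COL3A1 at 7.83, PDGFRA at 13.4 and COL1A1 at 35.7 FPKM. The summed fibroblast list lay between 50.3 and 61.4 FPKM in vehicle-treated and between 45.5 and 74.4 FPKM in WCE-treated tumors. The summed pericyte and smooth muscle list lay between 10.1 and 17.9 FPKM and the adipocyte list between 0.105 and 0.415 FPKM over all tumors. Of the macrophage and myeloid list 5 of 6 genes had a mean under 0.5 FPKM, with CD68 as the exception, and of the endothelial list 3 of 6, namely CDH5, TEK and VWF. The summed endothelial list was between 3.93 and 5.17 FPKM in vehicle-treated and between 4.80 and 11.5 FPKM in WCE-treated tumors. In these bulk samples, fewer cells of a type and less RNA per cell cannot be told apart.

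The 10 genes fell into high and low ones. By mean FPKM over the 6 tumors THBS1 stood first at 171, followed by CYR61 at 95.8, FN1 at 78.0, SPARC at 62.6, TNC at 48.0, CTGF at 32.7, SPOCK1 at 7.99, LUM at 1.20 FPKM, POSTN at 0.435 and DCN at 0.0966. Among the 5 highest genes the ranges of neighbours in this order overlapped, and SPARC was above TNC in 3 of 6 tumors. TNC was above CTGF and CTGF above SPOCK1 in 6 of 6 tumors, without overlap of their ranges. Of the low genes, SPOCK1 was above LUM in 6 of 6, LUM above POSTN in 4 of 6 and POSTN above DCN in 5 of 6 tumors. THBS1 lay at the 96th percentile of the 13287 entries with a mean of at least 0.5 FPKM, and LUM at the 8.77th. Only 8 of the 10 genes reached that mean. DCN and POSTN did not, and LUM reached it only through the vehicle-treated tumors, since its mean was 0.496 FPKM in WCE-treated tumors.

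**Figure D1:**
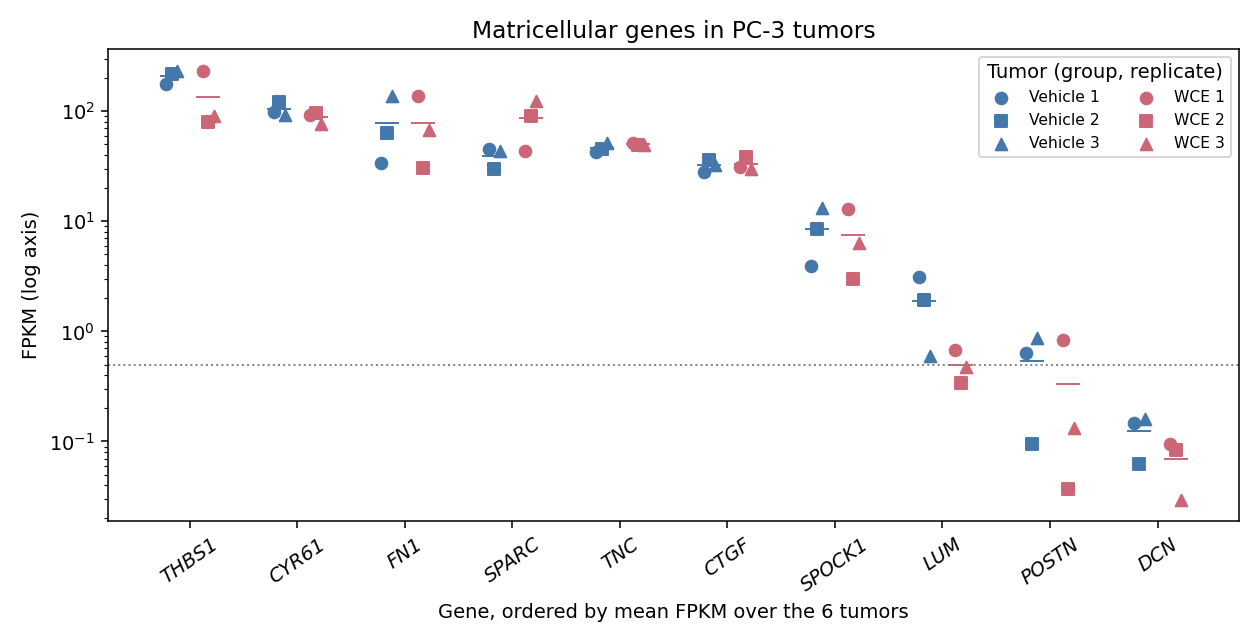
FPKM (log axis) of the 10 genes in each of the 6 tumors, ordered by mean, with blue symbols for vehicle-treated and red symbols for WCE-treated tumors, a symbol shape for each replicate number, short lines at the group means of 3 tumors, and a dotted line at 0.5 FPKM. The 2 groups overlap in all 10 genes, and THBS1 has the highest mean at 171 FPKM and DCN the lowest at 0.0966 FPKM.

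In 0 of the 10 genes did the 3 WCE-treated tumors lie wholly above or below the 3 vehicle-treated tumors, compared with 12.8% of the 13287 entries tested. As the nearly identical pair is split between the groups, both numbers turn on the small differences within that pair. Of the 8 genes with a mean of at least 0.5 FPKM, 3 had a higher and 5 a lower mean of log2(FPKM + 1) in WCE-treated tumors. FN1 counts among the lower by this mean, although its mean FPKM was slightly higher, and the direction of SPOCK1, FN1 and CTGF turned when certain single tumors were left out. The median log2 difference over these 8 genes was −0.12, beside −0.0063 over all entries. As the genes were chosen with these values known, nothing is read from those counts.

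SPARC, which encodes a collagen-binding protein of bone and basement membrane also called osteonectin, is listed on chromosome 5 from 151040657 to 151066615 in hg19. It had 45.0, 30.0 and 43.1 FPKM in vehicle-treated tumors and 43.1, 90.8 and 124 FPKM in WCE-treated tumors. WCE replicates 2 and 3 stood above the other 4 tumors, and WCE replicate 1 lay within the vehicle-treated range. The group means were 39.4 ± 8.15 and 85.9 ± 40.6 FPKM (SD, n = 3 each), a 2.18-fold difference. The log2 difference was 1.00 with a standard error of 0.36, and 1.50 (standard error 0.24) for the 2 tumors against 2. It lay between 0.68 and 1.43 when 1 tumor was left out. PDGFRA, on the fibroblast marker list, was also highest in WCE replicates 2 and 3, at 32.6 and 20.7 FPKM against 3.97 to 11.0 FPKM in the other 4 tumors. COL1A1, COL3A1, FAP, COL1A2 and PDGFRB of the same list were at their lowest in WCE replicate 2, at 10.4, 1.81, 0.479, 0.0513 and 0.0484 FPKM. Of the endothelial list KDR, a VEGF receptor, had 1.59 and 5.12 FPKM in WCE replicates 2 and 3 against 0.216 to 0.559 FPKM in the other 4 tumors, and ENG (endoglin) 3.75 and 3.92 FPKM against 1.55 to 2.73 FPKM. PECAM1, CDH5, TEK and VWF of that list did not stand above the other tumors in WCE replicates 2 and 3. PECAM1 had 2.05 and 2.37 FPKM there, against 0.860 to 2.95 FPKM in the other 4 tumors. The part of such cells in the SPARC values was not tested.

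SPOCK1, a testican that shares domains with SPARC, is listed on the same chromosome from 136310987 to 136835018. It had 3.90, 8.55 and 13.1 FPKM in vehicle-treated and 12.98, 2.99 and 6.41 FPKM in WCE-treated tumors. Its log2 difference of −0.23 was smaller than its standard error of 0.51, and it was −0.33 (standard error 0.42) for the 2 tumors against 2. Among the other genes of the SPARC family, FSTL1, which encodes a follistatin-like secreted glycoprotein, was high and even, from 243 to 248 FPKM in all 6 tumors. Of the 6 further family members on the list, 3 were tested and 0 had one under 0.05 before adjustment. SMOC1 had 3.93, 3.39 and 2.74 FPKM in vehicle-treated and 2.66, 0.904 and 2.44 FPKM in WCE-treated tumors. The groups were apart only by the difference within the nearly identical pair, 2.74 against 2.66 FPKM. The unadjusted p of SMOC1 was 0.0534 and the adjusted one 0.623 in limma.

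LUM, which encodes a keratan sulfate proteoglycan that spaces collagen fibrils, is listed on chromosome 12 from 91497232 to 91505542. It had 3.15, 1.94 and 0.599 FPKM in vehicle-treated and 0.670, 0.338 and 0.479 FPKM in WCE-treated tumors. Vehicle replicates 1 and 2 were the high ones, and vehicle replicate 3 lay inside the WCE-treated range. The means were 1.89 ± 1.27 and 0.496 ± 0.167 FPKM (SD, n = 3 each). The log2 difference was −0.85 with a standard error of 0.32, −1.31 (standard error 0.21) for the 2 tumors against 2, and −1.52 for all 6 with a pseudocount of 0.1 in place of 1. It was −0.54 without vehicle replicate 1 and −1.23 without vehicle replicate 3, the ends of its range when 1 tumor was left out.

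DCN, which lies on the same chromosome from 91539035 to 91576806 and encodes a proteoglycan that binds collagen and TGF-beta, was near 0. Its values were 0.147, 0.0630 and 0.161 FPKM in vehicle-treated and 0.0949, 0.0841 and 0.0296 FPKM in WCE-treated tumors. When each value was multiplied by the relative depth of its tumor and divided by the lowest product, DCN stood at 4.02, 2.01, 6.77, 1.00, 3.02 and 1.00, mostly near whole steps as values that rest on a few reads do. Of the 14 other small leucine-rich proteoglycans on the list, 3 were tested, 1 had a mean of at least 10 FPKM, which was TSKU (tsukushi) at 14.9 FPKM, and 0 passed an unadjusted p of 0.05. ASPN (asporin) had 0.852, 1.54 and 0.719 FPKM in vehicle-treated and 0.701, 0.532 and 0.521 FPKM in WCE-treated tumors.

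FN1 encodes fibronectin, the adhesive glycoprotein that cells assemble into fibrils through integrin alpha5 beta1, and is listed on chromosome 2 from 216225179 to 216300791. It had 33.5, 63.6 and 136 FPKM in vehicle-treated tumors and 138, 30.3 and 66.9 FPKM in WCE-treated tumors. Each group thus held a low, a middle and a high tumor, 4.06-fold apart at most among vehicle-treated and 4.54-fold among WCE-treated tumors. The group means were nearly equal, at 77.7 ± 52.7 and 78.3 ± 54.5 FPKM (SD, n = 3 each), with a log2 difference of −0.016 and a standard error of 0.62. It was −0.032 (standard error 0.45) for the 2 tumors against 2, and between −0.54 and 0.53 when 1 tumor was left out. The within-group SD of FN1 was 1.04 in log2(FPKM + 1), at the 99.3rd percentile of the 6887 entries with a mean of at least 10 FPKM, whose median was 0.149. THBS1 and SPARC lay at the 98.0th and 97.9th percentile of the same entries. The high FN1 value in each group came from the nearly identical pair.

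SPOCK1 varied over the tumors as FN1 did. The ratio of SPOCK1 to FN1 in FPKM stayed between 0.0943 and 0.134, while each gene spanned more than 4-fold, 4.39-fold for SPOCK1 and 4.54-fold for FN1. The root mean square difference between their centred log2(FPKM + 1) profiles was 0.22 over 6 tumors. TNC with CTGF and CYR61 with CTGF came out lower, at 0.16 and 0.18, but these genes varied less over the tumors. The likeness of SPOCK1 to FN1 was picked out after the values were seen. It is a description, as the high values of both genes came from the nearly identical pair.

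**Figure D2:**
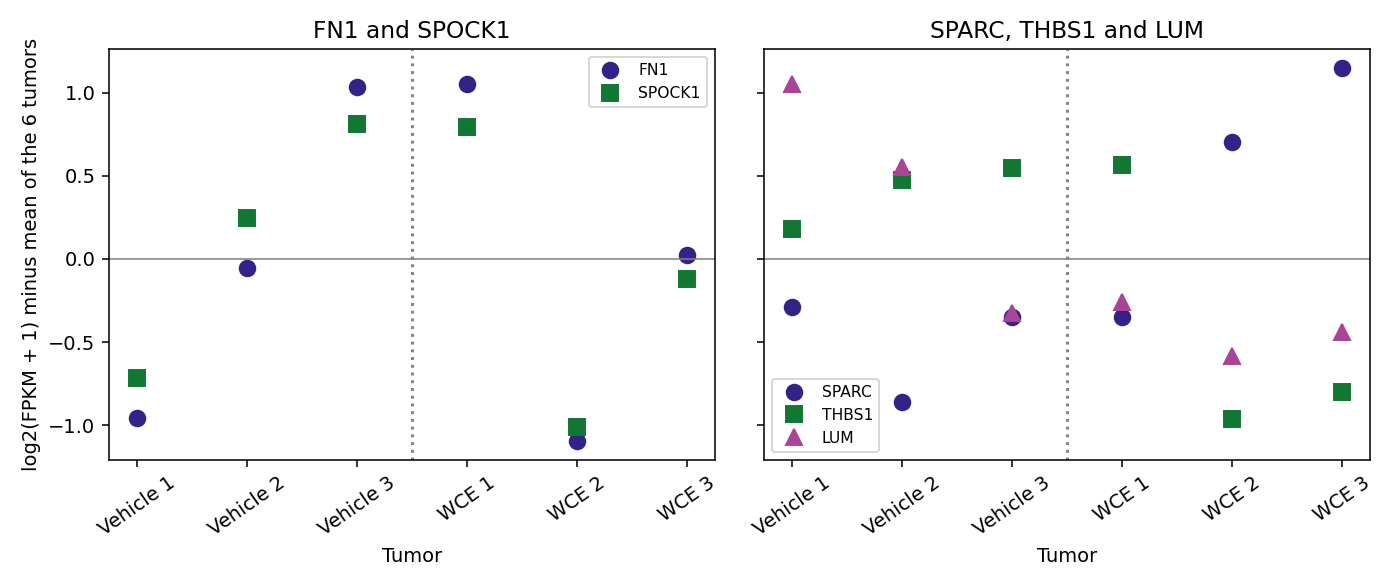
log2(FPKM + 1) minus the mean of the 6 tumors for FN1 and SPOCK1 (left) and for SPARC, THBS1 and LUM (right), with 1 symbol per gene in each tumor and a dotted line between the vehicle-treated and WCE-treated tumors. FN1 and SPOCK1 are low in Vehicle 1 and WCE 2 and high in Vehicle 3 and WCE 1, whereas SPARC is high and THBS1 low in WCE 2 and WCE 3.

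THBS1, which encodes a large trimeric glycoprotein that inhibits angiogenesis through CD36 and CD47 and activates latent TGF-beta, is listed on chromosome 15 from 39873280 to 39889668. It had 178, 218 and 229 FPKM in vehicle-treated tumors and 232, 79.8 and 89.5 FPKM in WCE-treated tumors. WCE replicate 1 was the highest of the 6, while WCE replicates 2 and 3 lay below all others. The means were 208 ± 27.1 and 134 ± 85.1 FPKM (SD, n = 3 each), with a log2 difference of −0.80 and a standard error of 0.37. For the 2 tumors against 2 it was −1.21 (standard error 0.14), a 2.34-fold lower mean FPKM. It was −0.52 without WCE replicate 2 and −1.28 without WCE replicate 1, the ends of its range when 1 tumor was left out. Of the 4 other thrombospondins, THBS3 had the highest mean at 14.6 FPKM and THBS2 followed at 10.4 FPKM. Their unadjusted p was 0.0669 and 0.785 by limma.

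TNC, a hexameric glycoprotein of remodelling stroma, is listed on chromosome 9 from 117781854 to 117880536. It was the steadiest of the 10 genes, with 42.1, 45.2 and 51.3 FPKM in vehicle-treated and 51.3, 48.9 and 49.4 FPKM in WCE-treated tumors, 1.22-fold from the lowest to the highest. The log2 difference was 0.11 with a standard error of 0.10, and 0.17 (standard error 0.10) for the 2 tumors against 2. None of the 3 other tenascins reached a mean of 0.5 FPKM, the highest being TNXB at 0.151 FPKM. POSTN, a fasciclin-domain protein of activated fibroblasts and bone that is listed on chromosome 13 from 38136719 to 38172981, had 0.632, 0.0951 and 0.879 FPKM in vehicle-treated and 0.836, 0.0367 and 0.132 FPKM in WCE-treated tumors. Its high tumors were vehicle replicates 1 and 3 and WCE replicate 1. Its family member TGFBI had a mean of 12.1 FPKM and an unadjusted p of 0.319 by limma.

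CYR61 and CTGF encode secreted proteins of the CCN family that bind integrins and heparan sulfate, and both are standard readouts of YAP/TAZ. CYR61, on chromosome 1 from 86046444 to 86049648, had 98.3, 122 and 91.3 FPKM in vehicle-treated and 92.5, 95.3 and 76.1 FPKM in WCE-treated tumors. CTGF, on chromosome 6 from 132269317 to 132272518, had 28.2, 36.3 and 32.6 FPKM in vehicle-treated and 30.9, 38.3 and 29.8 FPKM in WCE-treated tumors. The tumors of the 2 groups were mixed in both genes. The log2 difference was −0.23 (standard error 0.14) for CYR61 and 0.027 (standard error 0.14) for CTGF. For the 2 tumors against 2 these were −0.36 (standard error 0.17) and 0.079 (standard error 0.18). CYR61 exceeded CTGF by 2.49-fold to 3.49-fold in every tumor. Of the other CCN genes only NOV (CCN3) was tested, with a mean of 23.1 FPKM and an unadjusted p of 0.342 by limma.

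**Figure D3:**
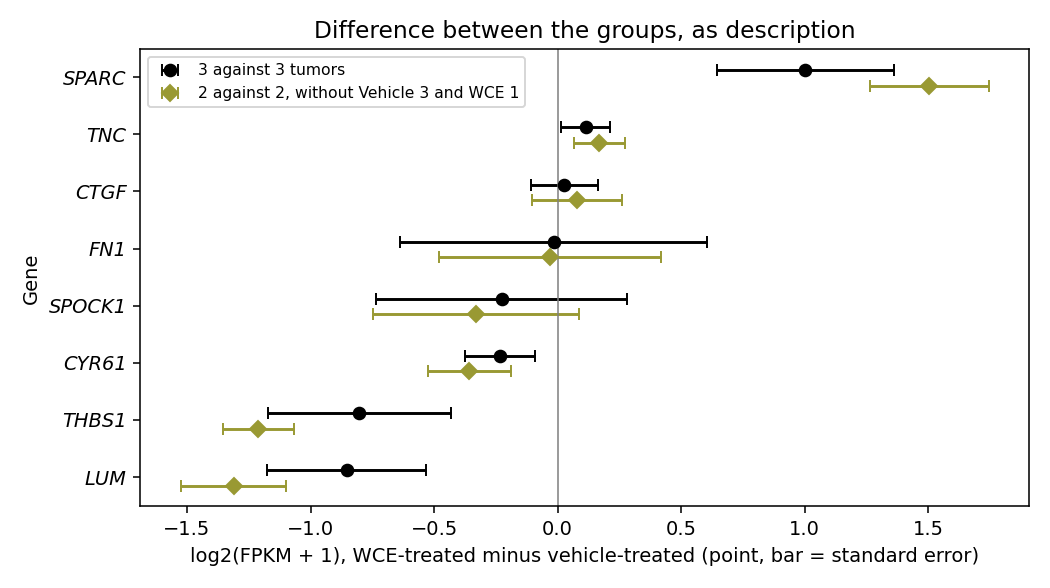
Difference in log2(FPKM + 1), WCE-treated minus vehicle-treated, for the 8 genes with a mean of at least 0.5 FPKM, with black circles for 3 against 3 tumors, diamonds for 2 against 2 tumors without Vehicle 3 and WCE 1, and bars of 1 standard error. SPARC lies at 1.00 and 1.50, LUM at −0.85 and −1.31 and THBS1 at −0.80 and −1.21, and the bars of FN1, SPOCK1 and CTGF cross 0 in both.

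The promoters of SPARC, THBS1, FN1 and CTGF are shown because the first pair of genes stood apart in opposite directions in WCE replicates 2 and 3, FN1 had the largest within-group SD of the 8 genes in log2(FPKM + 1), and CTGF is the textbook target of TEAD factors, through which YAP/TAZ bind DNA. RefSeq promoters were matched for 6 of the 10 genes. CYR61, SPOCK1, LUM and DCN had no match. Each sequence is the 250 bases before the gene start in GRCh38.p14, 5′ to 3′ on the strand of the gene. Capitals mark the TEAD motif GGAATG, on either strand, in SPARC (chr5:151686916-151687165, minus strand), THBS1 (chr15:39580829-39581078, plus strand) and CTGF (chr6:131951373-131951622, minus strand), and the cyclic AMP response element TGACGTCA in FN1 (chr2:215436069-215436318, minus strand).
SPARC: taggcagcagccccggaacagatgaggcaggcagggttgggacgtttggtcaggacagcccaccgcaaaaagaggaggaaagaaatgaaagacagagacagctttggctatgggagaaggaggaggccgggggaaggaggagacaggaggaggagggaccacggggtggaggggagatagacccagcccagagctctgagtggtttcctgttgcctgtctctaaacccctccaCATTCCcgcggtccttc
THBS1: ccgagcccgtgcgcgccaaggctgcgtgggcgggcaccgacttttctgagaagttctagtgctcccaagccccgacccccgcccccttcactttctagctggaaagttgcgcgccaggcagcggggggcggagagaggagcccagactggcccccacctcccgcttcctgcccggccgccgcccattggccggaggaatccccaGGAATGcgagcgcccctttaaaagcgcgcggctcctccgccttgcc
CTGF: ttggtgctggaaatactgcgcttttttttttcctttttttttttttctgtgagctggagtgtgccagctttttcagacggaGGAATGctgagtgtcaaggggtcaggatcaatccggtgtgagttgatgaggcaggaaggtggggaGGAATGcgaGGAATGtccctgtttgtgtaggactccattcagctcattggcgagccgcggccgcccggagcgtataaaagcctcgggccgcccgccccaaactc
FN1: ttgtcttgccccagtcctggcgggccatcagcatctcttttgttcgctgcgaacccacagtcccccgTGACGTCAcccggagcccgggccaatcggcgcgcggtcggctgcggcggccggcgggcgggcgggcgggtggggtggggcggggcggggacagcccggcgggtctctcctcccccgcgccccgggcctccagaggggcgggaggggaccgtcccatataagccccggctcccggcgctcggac
The TEAD motif occurred 3 times in CTGF, and 1 time each in THBS1 and in SPARC, where it was on the opposite strand. It was found in the same window of 11.9% of the 35116 RefSeq promoters, and the response element TGACGTCA in 1.65%. In CTGF the TEAD match nearest to the start lies within a match to the NFκB motif, which was found in 9.96% of promoters, and none of the other 5 promoters matched to these genes held an NFκB match in this window. These are matches of letters. THBS1, SPARC and CTGF, which share the TEAD letters, did not share a pattern over the tumors.

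Genes of the same families and pathways were described from 11 lists, which together named 110 genes besides the 10. Of these, 76 were tested, and 13 (17.1%) had an unadjusted p under 0.05 by limma, against 7.10% of all entries. In WCE-treated tumors 11 of the 13 were higher and 2 lower, with a background of 3.78% of entries higher and 3.33% lower. None had an adjusted p under 0.05 by limma, which 0.00753% of all entries had, and the lowest was 0.623. The median log2 difference over the 76 genes was 0.013, beside −0.0063 over all entries. The count of 13 was 26 of 75 tested for the 2 tumors against 2, where 2459 of all 13255 entries also had an unadjusted p under 0.05 by limma. It was between 3 and 21 when 1 tumor was left out, where the count over all entries was between 228 and 2035. As the lists were chosen with earlier results of these data known, nothing is read from these shares or from those of single lists below.

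Other matrix glycoproteins made up 4 of the 13, out of 15 tested (26.7%, against 7.10% of all entries). NID1 (nidogen-1, a linker of basement membranes) had 7.82, 15.3 and 15.4 FPKM in vehicle-treated and 14.6, 26.6 and 24.6 FPKM in WCE-treated tumors, a log2 difference of 0.74 (standard error 0.30), or 1.15 for the 2 tumors against 2. LTBP3 and LTBP4, which hold latent TGF-beta in the matrix, and ECM1 had log2 differences of 0.33, 0.43 and 0.57, and of 0.52, 0.66 and 0.93 for the 2 tumors against 2. EFEMP1 (fibulin-3) differed as much in the other direction, by −0.99 (−1.48 for the 2 tumors against 2), but its standard error of 0.49 left an unadjusted p of 0.0793 by limma. Its values were 25.8, 23.9 and 33.2 FPKM in vehicle-treated and 33.1, 6.62 and 10.2 FPKM in WCE-treated tumors, so that WCE replicates 2 and 3 were low as they were in THBS1.

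Of the 12 receptors of the 10 proteins, 10 were tested and 1 had an unadjusted p under 0.05 by limma (10%, against 7.1% of all entries). This was LRP1, an endocytic receptor that clears thrombospondin-1 and binds CTGF, with 7.46, 8.67 and 13.2 FPKM in vehicle-treated and 13.1, 17.6 and 19.5 FPKM in WCE-treated tumors (log2 difference 0.74, standard error 0.22, unadjusted p = 0.0107 and after adjustment in limma an adjusted p of 0.623). For the 2 tumors against 2 the difference of LRP1 was 1.11. ITGB1, the integrin beta subunit used by fibronectin, was the most abundant receptor gene at a mean of 790 FPKM, with a log2 difference of −0.047. The thrombospondin receptor CD47 had a mean of 35.5 FPKM and a log2 difference of −0.14. CD36, the other thrombospondin receptor named above, had a mean of only 0.155 FPKM and was not tested.

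Among 19 tested YAP/TAZ targets other than CYR61 and CTGF, 3 were higher and 2 lower at an unadjusted p under 0.05 by limma (26.3%, against 7.1% of all entries). The median log2 difference of the list was 0.052. IGFBP3, DOCK5 and ARHGEF17 had log2 differences of 1.31, 0.48 and 0.33, and of 1.96, 0.69 and 0.46 for the 2 tumors against 2. ANKRD1, which encodes a nuclear ankyrin repeat protein, had 3.20, 2.99 and 2.41 FPKM in vehicle-treated and 2.49, 0.456 and 0.906 FPKM in WCE-treated tumors, a log2 difference of −0.85, and TGFB2 had one of −0.69. For the 2 tumors against 2 these were −1.30 and −1.06. The list thus held differences in both directions, with CYR61 and CTGF between them.

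Among the cross-linking and collagen-modifying enzymes, 1 of 15, LOX (lysyl oxidase), had an unadjusted p under 0.05 by limma, at 0.947, 1.47 and 2.00 FPKM in vehicle-treated and 2.45, 2.13 and 2.22 FPKM in WCE-treated tumors. Its log2 difference was 0.42, or 0.54 for the 2 tumors against 2. P4HA1, a prolyl hydroxylase, was the highest of these genes at a mean of 129 FPKM with a log2 difference of −0.079. Of 7 tested stromal collagens, COL6A1 and COL6A2 (28.6%, against 7.1% of all entries) were past the same threshold, COL6A1 at an unadjusted p of 0.0494 by limma. Their log2 differences were 0.58 and 0.72, or 0.87 and 1.07 for the 2 tumors against 2. COL6A2 was abundant, with 301, 366 and 578 FPKM in vehicle-treated and 581, 609 and 803 FPKM in WCE-treated tumors. The part of stromal or vessel cells in these differences was not tested.

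**Figure D4:**
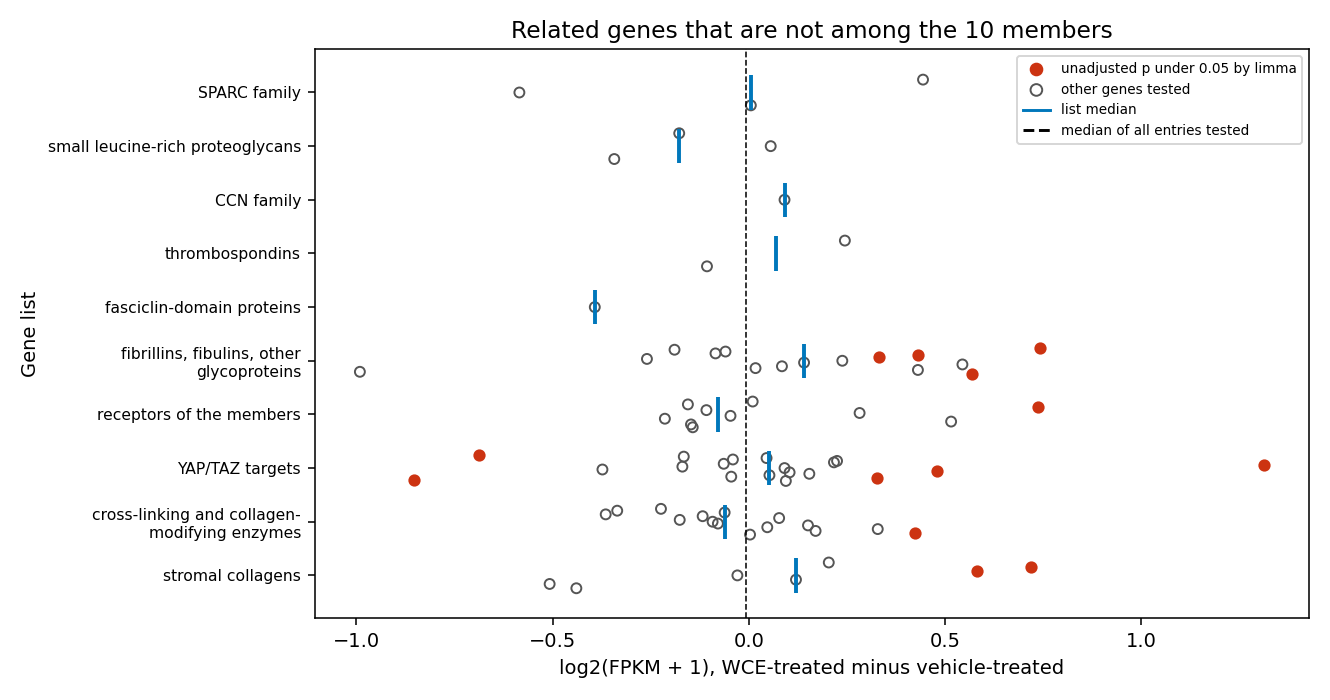
Difference in log2(FPKM + 1), WCE-treated minus vehicle-treated, for the 76 tested genes of 10 lists, with a circle per gene, red where the unadjusted p was under 0.05 by limma, a blue line at the list median and a dashed line at the median of all 13287 entries (−0.0063). Red circles number 13, with 11 on the right and 2 on the left of 0.

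By the root mean square difference of centred log2(FPKM + 1) profiles over the 6 tumors, the entries most like SPARC were KALRN, CLEC2B, NGEF, FAM131B and CD55, at 0.19 to 0.26. They were sought among the 1102 entries whose SD over the 6 tumors was at least 0.5 times that of SPARC, and those for LUM likewise. CD55, a complement regulator, had 46.9, 44.2 and 42.3 FPKM in vehicle-treated and 41.9, 98.5 and 98.9 FPKM in WCE-treated tumors. The entries most like LUM included VCAN, CDC42EP5, HOXB8 and EPCAM, at 0.15 to 0.23 among 1638 entries. On this scale the changes of a low gene such as LUM come out too small, so this likeness does not carry over to FPKM. LUM spanned 9.32-fold in FPKM, from 0.338 to 3.15, whereas EPCAM went from 123 to 305 FPKM. VCAN, which encodes the large proteoglycan versican, had 9.65, 6.71 and 4.22 FPKM in vehicle-treated and 3.96, 3.30 and 3.87 FPKM in WCE-treated tumors. In each of these profiles the nearly identical pair makes up 2 of the 6 values.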

How the data were processed

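Strand-specific libraries of polyadenylated RNA from 6 PC-3 xenografts, 3 vehicle-treated and 3 WCE-treated, were sequenced. The authors deposited 1 table of FPKM values with 24000 gene entries and a column per tumor. TopHat2 2.0.13, Cufflinks and the builds hg19 and mm10 are named in the submitters' processing notes without role or order. The annotation, the handling of mouse reads and any scaling between tumors are not given in the sources used here. The sample descriptions tied each column to its tumor. Loci are as listed, counted from 1, and read as hg19, the human build named.

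Entries with a mean of at least 0.5 FPKM over the 6 tumors (13287) were compared on log2(FPKM + 1), a scale on which changes of low genes come out too small, using limma 3.58.1 in R 4.3.3 (mean-variance trend, two-sided, unpaired) and Benjamini-Hochberg adjustment at 0.05. With 3 against 3 tumors the smallest p of an exact permutation test would be 0.1. On simulated data with 200 of 13287 entries changed, 69.5%, 91.0% and 96.5% were recovered at log2 changes of 1, 2 and 3. In these simulations 6, 5 and 11 unchanged entries were called as well. The simulated tumors were independent and held no nearly identical pair, so these shares need not hold for the data. The members, gene lists and tests were chosen with earlier results of these data known. Named genes were the 10 members, every list gene with an unadjusted p under 0.05 or else the highest of its list, and the 5 entries most like SPARC and LUM; some of these results are not reported here. SMOC1, ASPN, THBS2, EFEMP1, PDGFRA, KDR, ENG, PECAM1, CD47, CD36, the likeness of SPOCK1 to FN1 and the profiles like THBS1 and FN1 were chosen after their values were seen. Relative depth is the commonest ratio of the low FPKM values of vehicle replicate 3 to those of the tumor. The absolute depth is unknown, and counting intervals are left out. No value column was left out. Python 3.11.15, numpy 2.4.6, pandas 2.3.3 and matplotlib 3.10.9 were used.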

Additional observations from a re-analysis of the deposited data

How the results depend on the processing

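In limma on all 6 tumors, 1 entry had an adjusted and 944 an unadjusted p under 0.05, and 13 of the listed genes an unadjusted one. These counts were 0, 1051 and 4 when low values were not filtered out, 0, 593 and 2 in the unmoderated two-sample test, 1, 3201 and 27 with array weights, and 5, 2459 and 26 with both nearly identical libraries left out. With each tumor left out in turn they ranged from 1 to 7, from 228 to 2035 and from 3 to 21. The unadjusted count was 2035 without WCE replicate 1, 1769 without vehicle replicate 3, 438 without vehicle replicate 1, 378 without vehicle replicate 2, 244 without WCE replicate 2 and 228 without WCE replicate 3, and the count of listed genes was 21, 20, 3, 4, 5 and 3. The median log2 difference over the 8 members tested was −0.34 with array weights, and ranged from −0.41 to 0.079 when 1 tumor was left out. SPARC, LUM, THBS1, TNC and CYR61 kept their direction in each of 13 settings. SPOCK1 and FN1 did not without vehicle replicate 3 or without WCE replicate 2, nor CTGF with array weights, without vehicle replicate 1 or without WCE replicate 2. The cause was not tested. Without the filter and with a replicate block the log2 differences of the members were those of the main fit, so no direction could turn there. Leaving out the pair enlarges clear differences by arithmetic. As SPARC and LUM were also singled out by these values, their kept direction is a description and no support. The deviations of same-numbered tumors had correlations from −0.24 to 0.16, and those of differently numbered tumors from −0.33 to 0.36. With 3 tumors a group and the nearly identical pair under different numbers, this cannot tell whether replicate numbers pair the tumors. With a replicate block the counts were 1, 1049 and 15. Low genes are least precise in WCE replicate 1.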

Other observations

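The profiles of FN1 and THBS1 led to genes outside the matrix, a search made after their values were seen. By the root mean square difference of centred log2(FPKM + 1) over the 6 tumors, the entry most like FN1 was SLPI, which encodes a secreted protease inhibitor, at 0.10. It was sought among the 674 entries with an SD of at least 0.5 times that of FN1. SLPI had 171, 359 and 699 FPKM in vehicle-treated and 691, 189 and 341 FPKM in WCE-treated tumors, so it too was high in the nearly identical pair and lowest in vehicle replicate 1 and WCE replicate 2. MMP28 and DEFB1 followed at 0.15 and 0.16.

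Among the 1362 entries with an SD of at least 0.5 times that of THBS1, the one most like it was FEZ1 at 0.086. CSF2 at 0.12, SRPX at 0.14, KCNJ15 at 0.15 and GALNT3 at 0.18 followed. CSF2, which encodes the cytokine GM-CSF, had 7.80, 12.9 and 12.2 FPKM in vehicle-treated and 10.7, 3.34 and 3.96 FPKM in WCE-treated tumors, with WCE replicates 2 and 3 lowest as they were in THBS1.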
